A study of Mus musculus with 13 samples.

Results

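Oxidative phosphorylation runs on protein complexes whose subunits come from 2 genomes, and this account covers the genes for those subunits in mouse extraembryonic endoderm (XEN) cells and epiblast stem cells (EpiSC). Members were the rows of the deposited count table that GENCODE M21 names as protein-coding genes with symbols starting mt-, Ndufa, Ndufb, Ndufc, Ndufs, Ndufv, Uqcr, Cox4 to Cox8 or Atp5, together with Sdha, Sdhb, Sdhc and Sdhd, and without the Ndufaf assembly factors. This gave 97 of 38377 rows. The mitochondrial genome encodes 13 of them, of which 7 belong to complex I, 1 to complex III, 3 to complex IV and 2 to complex V. The other 84 are nuclear-encoded, with 36 in complex I, 4 in complex II, 8 in complex III, 19 in complex IV and 17 in complex V.

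The series measured RNA by bulk sequencing in 13 libraries of female mouse cells, to ask what loss of Xist does to X-linked genes. Xist is the long RNA that coats 1 X chromosome of a female cell and silences it. The groups were EpiSC with a heterozygous Xist deletion (dXist EpiSC, 2 libraries), wild-type EpiSC (WT EpiSC, 2), XEN cells with the paternal Xist deleted and 20 uM 5-aza-2'-deoxycytidine in the medium, a drug that blocks DNA methylation (Aza dXist XEN, 2), the same deletion untreated (dXist XEN, 3), treated wild-type XEN (Aza WT XEN, 2) and untreated wild-type XEN (WT XEN, 2). XEN cells derive from primitive endoderm and were grown with serum in DMEM. EpiSC derive from the post-implantation epiblast and were grown on matrigel with FGF2 and Activin. The deletion group in each cell type keeps an Xist allele. The labels do not say whether numbered libraries were separate clones or cultures, so p-values cover only the spread from library to library, which may be technical.

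Xist was counted at 0.435 and 0.276 CPM (counts scaled to library size) in dXist EpiSC, against 816 and 206 in WT EpiSC, and at 2.28, 1.16 and 4.79 in dXist XEN, against 1551 and 1587 in WT XEN. The Aza dXist XEN libraries held 14.6 and 242 CPM, both above the dXist XEN libraries and library 2 far above them. The cause was not tested, and median changes without library 2 are given below. Summed markers matched the labelled cells, with the 8 XEN markers summing to 2371 to 5409 CPM in the 9 XEN libraries and to 35.01 to 94.9 CPM in EpiSC. The 8 EpiSC markers summed to 743 to 1215 CPM in EpiSC and 45.9 to 215 CPM in XEN. Of these, Dnmt3b did not set the cells apart, at 136 to 177 CPM in EpiSC and 29.6 to 206 CPM in XEN. It held 165 and 206 CPM in WT XEN. Totals ran from 5848454 to 35247432 counts a library. In 4 libraries, both of Aza WT XEN, WT EpiSC 2 and dXist EpiSC 2, the mitochondrial ribosomal RNAs and Rn7sk, which lack poly(A) tails, took 10.4 to 13.5% of counts, against 0.0152 to 0.279% in the other 9. These 4 are called total-like here and the other 9 polyA-like.

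Complexes I to IV pass electrons from NADH and succinate to oxygen and, except for complex II, pump protons across the inner mitochondrial membrane. Complex V, the ATP synthase, lets the protons back through a turning rotor and makes ATP. The mitochondrial genome keeps genes for hydrophobic core subunits of every complex but complex II, and all other subunits are made in the cytosol and imported, so assembly draws on transcripts of both genomes. Pluripotent epiblast cells are known to lean heavily on glycolysis.

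Parts of the mitochondrial genome also lie in the nuclear genome as inserted copies, and this bears on every mitochondrial value below. The first stretch is from the mt-Co1 transcript (M:6498-6587, GRCm38), which encodes the catalytic core of complex IV. The others are the aligned stretches of its copies Gm13340 (chr2:22588388-22588477, minus strand) and Gm29216 (chr1:24615991-24616080, minus strand), with bases that differ from mt-Co1 in capitals.
mt-Co1: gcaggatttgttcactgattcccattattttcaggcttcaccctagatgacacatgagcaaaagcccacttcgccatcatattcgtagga
Gm13340: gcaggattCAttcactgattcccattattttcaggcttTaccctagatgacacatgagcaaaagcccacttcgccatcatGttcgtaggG
Gm29216: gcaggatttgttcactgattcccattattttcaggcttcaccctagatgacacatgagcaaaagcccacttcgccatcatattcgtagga
Over these 90 bases Gm13340 differed at 5 positions and Gm29216 at 0. The transcripts of 15 annotated nuclear genes matched a mitochondrial member at 90% identity or more over at least 50% of their length. Of these, 7 lie on chromosome 1, 3 lie on chromosome 2, and 5 were identical to their mitochondrial partner.

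For each mitochondrial member, the share of its 75-base windows that also occur in a nuclear gene's transcript was counted. It was 99.5% for mt-Co2, 99.5% for mt-Atp6, 99.9% for mt-Co3, 97.8% for mt-Nd3 and 98.7% for mt-Nd4l. It was 61.5% for mt-Nd4 and 39.8% for mt-Co1, and under 10% for the other 6, mt-Nd1, mt-Nd2, mt-Nd5, mt-Nd6, mt-Cytb and mt-Atp8. A read from a shared window can be placed by its bases at either locus, and how the authors' counting treated such reads is not stated in these sources. The counts assigned to the copies differed between cell types. Gm13340, a full-length copy of mt-Co1 that is 97.6% identical to it, held 2.13 to 3.50 CPM in the 4 EpiSC libraries and 1426 to 20473 CPM in the 9 XEN libraries. Its count was 0.000172 to 0.000443 of the mt-Co1 count in EpiSC and 0.911 to 1.70 of it in XEN, so the cell types did not overlap. Gm28437, identical to its stretch of mt-Co3, held 0.670 to 2.27 times the mt-Co3 count in EpiSC and 0.491 to 0.980 times in XEN, and there the cell types overlapped. Exact windows can miss copies that differ from their gene. Gm13339, 96.7% identical to mt-Nd2, held 0 to 0.282 CPM in EpiSC and 49.9 to 9699 CPM in XEN. Gm4076, 95.2% identical to mt-Nd5, held 0 to 0.0565 CPM in EpiSC and 28.7 to 2958 CPM in XEN. Members under 10% shared are therefore not free of copies. All 15 copies together held 40.0 to 90.5 CPM in EpiSC and 1749 to 37092 CPM in XEN.

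**Figure D1:**
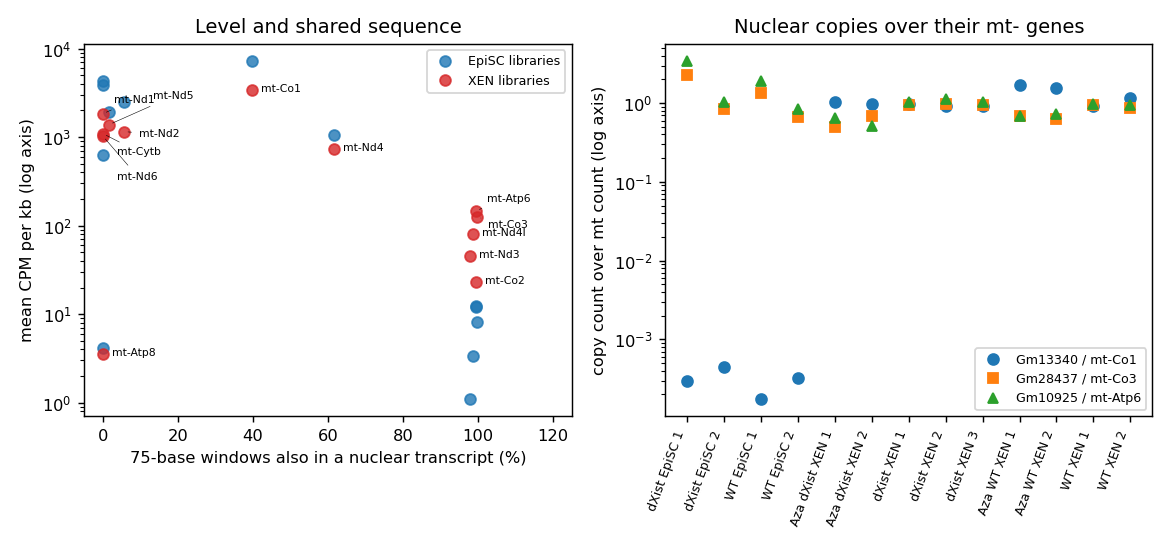
The left panel plots the mean level of each mt- gene per kb of exon (log axis) in EpiSC and XEN libraries against the percent of its 75-base windows found in a nuclear transcript. The right panel plots, for each library, the count of 3 nuclear copies over that of their mt- gene (log axis). Genes with almost every window shared were low, as was mt-Atp8 with none shared, and Gm13340 over mt-Co1 was 0.911 to 1.70 in XEN and at most 0.000443 in EpiSC.

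Levels between genes are compared as CPM per kb of exon, averaged over the 13 libraries. Among mitochondrial members mt-Co1 was highest at 4592 CPM per kb, followed by mt-Nd1, a membrane subunit of complex I, at 2457 and mt-Cytb, the cytochrome b of complex III, at 2063. The lowest were mt-Atp8 at 3.75, mt-Co2 at 19.6 and mt-Nd3 at 31.4 CPM per kb. Apart from mt-Atp8, a short gene that overlaps mt-Atp6, the low members were those with nearly every window shared. The median of the 84 nuclear members was 41.1 CPM per kb.

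Nuclear members differed widely within each complex. In complex I, Ndufa1, an X-linked membrane-arm subunit, was highest at 106 CPM per kb and Ndufb2 lowest at 1.35. Complex II ran from Sdhd at 83.1 to Sdhc at 19.6 CPM per kb, both of them membrane anchors of succinate dehydrogenase. In complex III the ends were Uqcr10 at 153 and the core protein Uqcrc1 at 35.01 CPM per kb. Complex IV ran from Cox8a at 447, the highest nuclear level, to its muscle-type paralogue Cox8b at 0.113 CPM per kb. In complex V, Atp5b, the catalytic beta subunit, was highest at 231 and Atp5s, a coupling factor, lowest at 4.33 CPM per kb.

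Several members have tissue-type paralogues. Of complex IV, Cox4i1 held 101 to 197 CPM in EpiSC and 233 to 714 in XEN, while Cox4i2, known from lung, held at most 0.499 CPM in any library. Cox6a2 and Cox8b, the heart and muscle forms, reached at most 1.03 CPM in any library, and Cox7a1, likewise a muscle form, lay between 0.675 and 3.37 CPM. Cox7b2 had no count in EpiSC and reached 11.4 CPM in dXist XEN 3, against 0.994 and 0 CPM in the other dXist XEN libraries. Cox6b2, the testis form of Cox6b1, was present at 13.8 to 30.8 CPM in EpiSC and 6.32 to 61.2 CPM in XEN. The 3 genes for the rotor's c subunit were all expressed, Atp5g1 at 7.48 to 131 CPM and Atp5g3 at 63.7 to 231 over all libraries. Atp5g2 lay at 43.1 to 365 CPM in 12 libraries and at 9.9999 CPM in Aza dXist XEN 1.

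Summed over each genome, the members' counts varied far more between libraries on the mitochondrial side. Mitochondrial members took 2.39 and 1.34% of counts in dXist EpiSC and 6.97 and 1.20% in WT EpiSC. In XEN cells they took 5.75 and 0.941% in Aza dXist, 0.524, 0.328 and 1.24% in dXist, 0.364 and 0.361% in Aza WT, and 1.07 and 0.516% in WT. Nuclear members lay within a narrower range, 0.501 to 1.15% over all 13 libraries. Of the mitochondrial counts, mt-Co1 alone made up 29.0 to 68.1%. The light-strand gene mt-Nd6 and the heavy-strand gene mt-Nd5 overlap at their ends, so without a stated counting strand their shared reads cannot be told apart.

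**Figure D2:**
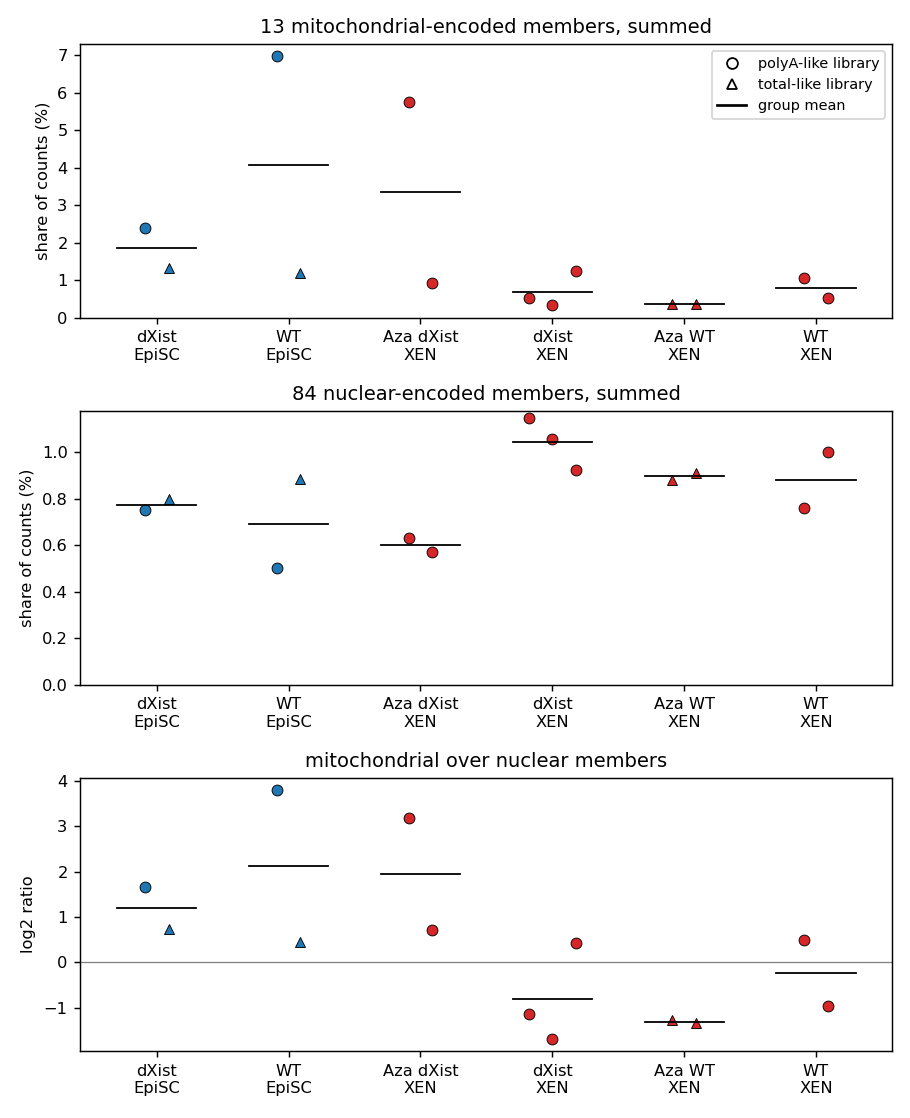
Share of raw counts (percent) held by mitochondrial-encoded members (top) and nuclear-encoded members (middle), and the log2 ratio of their counts (bottom), 1 point a library (circles polyA-like, triangles total-like, bars the group mean, blue EpiSC, red XEN). WT EpiSC 1 and Aza dXist XEN 1 have the highest mitochondrial shares (6.97 and 5.75%), and the nuclear shares of EpiSC and untreated XEN overlap, with WT EpiSC 2 above WT XEN 1.

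After scaling, EpiSC libraries held less nuclear-encoded oxidative phosphorylation RNA than untreated XEN libraries, but the difference did not pass the test once adjusted. Summed over the 84 nuclear members, the level was 6041 and 7023 CPM in dXist EpiSC, 4957 and 7723 in WT EpiSC, 12691, 11060 and 9711 in dXist XEN, and 7846 and 11244 in WT XEN. The mean was 6436 ± 1203 CPM in untreated EpiSC (SD, n = 4) and 10510 ± 1826 CPM in untreated XEN (SD, n = 5), with no overlap (exact permutation test, two-sided, p = 0.0159, the smallest that 4 against 5 libraries allow, and 0.0952 adjusted over the 6 comparisons of this sum). As a share of raw counts, with no scaling between libraries, it was 0.734 ± 0.164% in EpiSC and 0.978 ± 0.147% in XEN, and the groups overlapped (exact permutation test, p = 0.0635). With the polyA-like libraries alone, 2 EpiSC against 5 XEN, the direction was the same and the exact p was 0.0952, the smallest possible. In such bulk samples, fewer cells of a type and less RNA per cell cannot be told apart.

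By complex, the complex I sum was 1644 ± 309 CPM in EpiSC and 2451 ± 342 CPM in XEN (SD, n = 4 and 5 here and below), and that of complex II 303 ± 27.0 CPM in EpiSC and 512 ± 92.0 CPM in XEN. Complex III summed to 586 ± 65.1 CPM in EpiSC and 1209 ± 407 CPM in XEN, and complex IV to 1294 ± 451 CPM in EpiSC and 2293 ± 299 CPM in XEN. Complex V summed to 2609 ± 379 CPM in EpiSC and 4046 ± 779 CPM in XEN. For complexes I to IV all 4 EpiSC libraries lay below all 5 XEN libraries, and for complex V the groups overlapped. Gene by gene, 28 of 81 nuclear members with a mean of at least 1 CPM were lower in all 4 EpiSC libraries than in all 5 untreated XEN libraries, or 34.6%, where 23% of all 14133 such genes were. In the other direction there were 3, or 3.70%, beside 22.6% of all genes. These 3 were Atp5c1, the gamma subunit of the ATP synthase stalk, Cox7a2l, a factor that joins complexes III and IV, and Ndufa4l2. They were named after their values had been seen.

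The balance between the genomes did not pass the test once adjusted. The log2 ratio of mitochondrial to nuclear member counts was 1.66 ± 1.52 in untreated EpiSC (SD, n = 4) and -0.57 ± 0.98 in untreated XEN (SD, n = 5), a difference of 2.23 (exact permutation test, two-sided, p = 0.0317, and 0.190 adjusted over 6 comparisons). The groups overlapped. Leaving out any 1 library but WT EpiSC 2 or WT XEN 1 took the exact p above 0.05 (0.0571 to 0.0714 for the other 7). With the counts of the nuclear copies added to the mitochondrial side the difference was 1.59 (exact p = 0.111), and with only the 6 members under 10% shared it was 2.09 (exact p = 0.0952). These 6 include mt-Nd2 and mt-Nd5, whose copies Gm13339 and Gm4076 held counts in XEN, so that set is not free of copies. With mt-Co1 left out the difference was 1.99 (exact p = 0.0952). Averaging the members' log2 levels instead of summing counts gave 0.25 (exact p = 0.778). Within libraries of 1 type the EpiSC values were 1.67 and 3.80 in the polyA-like libraries and 0.74 and 0.44 in the total-like ones, so the polyA-like EpiSC libraries were the high ones.

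**Figure D3:**
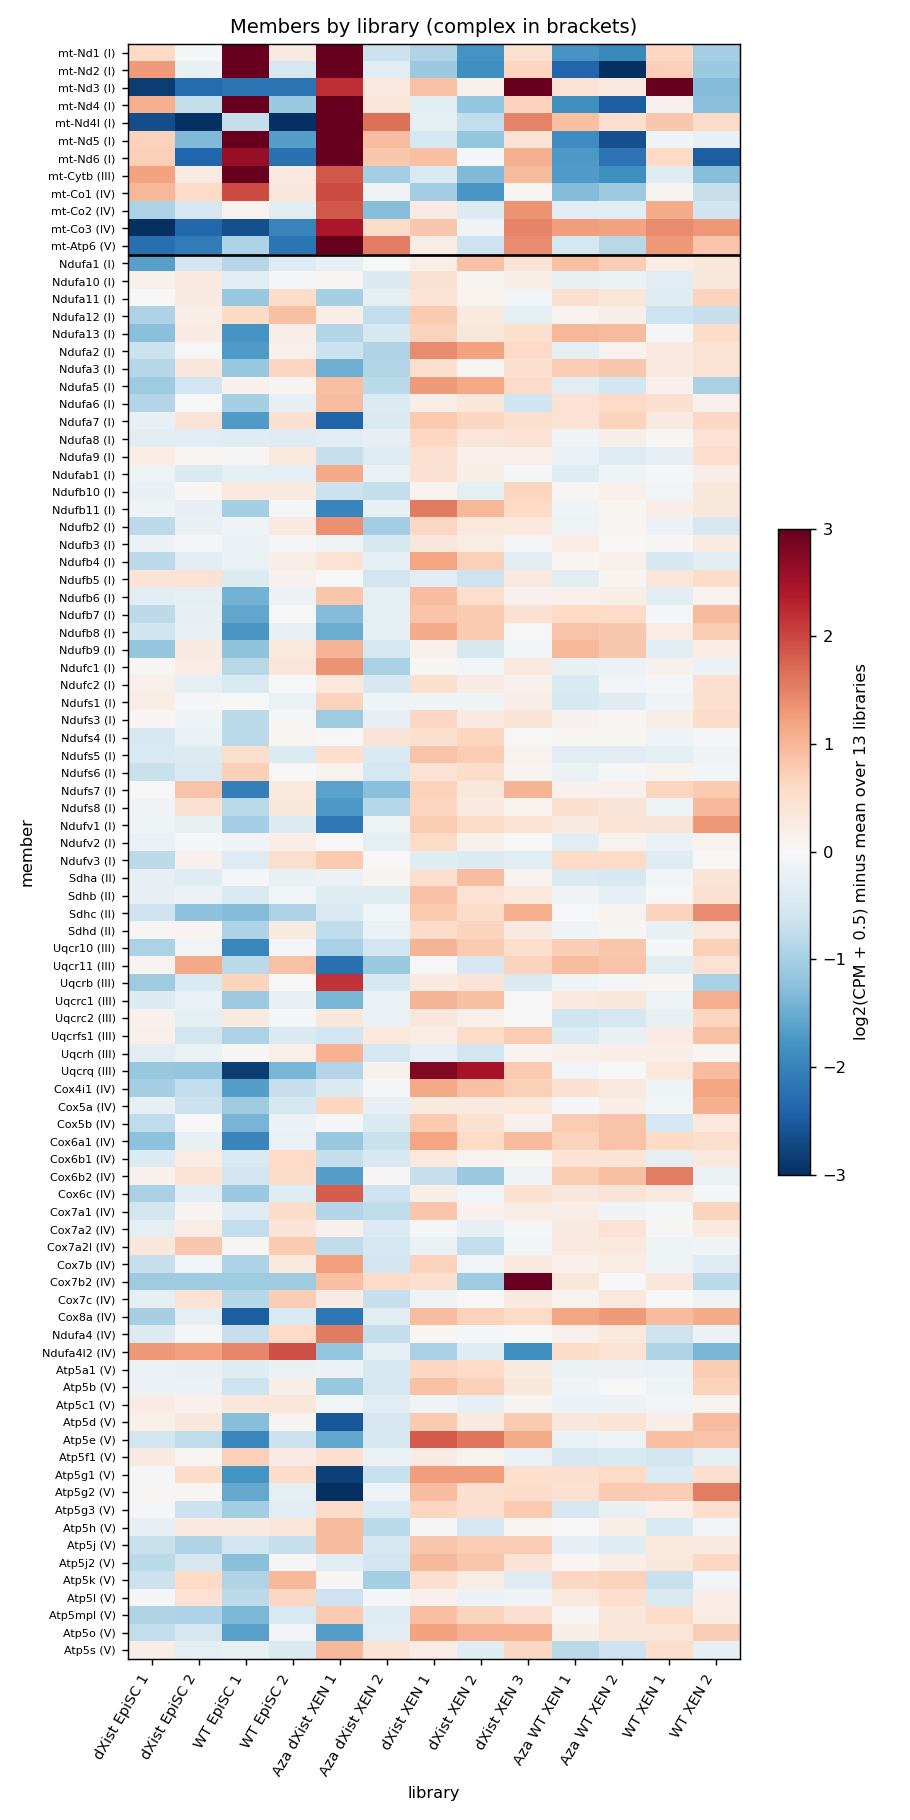
Each row is a member with a mean of at least 1 CPM (mitochondrial above the line, nuclear below it, grouped by complex, 1 nuclear member not shown) and each column a library. Colour is log2(CPM + 0.5) minus the row's mean over 13 libraries, capped at 3 either way. Nuclear rows such as Sdhc and Atp5e are lower in all 4 EpiSC libraries than in all 5 untreated XEN libraries, and mitochondrial rows are above their means in Aza dXist XEN 1 while in WT EpiSC 1 some, such as mt-Cytb, are high and others, such as mt-Co3, are low.

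Between WT EpiSC and WT XEN, edgeR's quasi-likelihood test called 18 of 95 tested members at a Benjamini-Hochberg adjusted p under 0.05, 3 higher and 15 lower in EpiSC. Over all genes tested 30.8% were called, 16.8% higher and 14.1% lower. In this fit, then, the 15 lower calls of 95 members are near that background and the 3 higher ones below it. No test compared the members with these shares. The median log2 fold change was -0.49 for the 82 nuclear members, of which 59 were negative, and 0.13 for all genes. For the 13 mitochondrial members it was 1.61, with 8 positive. For the 6 of these with under 10% shared windows it was 2.52, with 6 positive, of which only mt-Cytb was called. Among these 6, mt-Nd2 and mt-Nd5 have copies that held counts in XEN and almost none in EpiSC. Single libraries moved these medians. Without WT EpiSC 1 the mitochondrial one was -0.80, with 3 of 13 positive, and the nuclear one -0.16. Without WT XEN 2 the nuclear one was -0.13. The polyA-like libraries alone gave a nuclear median of -0.93, with 67 of 82 negative, beside -0.02 for all genes. They leave 1 WT EpiSC library, a group with no spread of its own. Calls in that fit therefore cannot settle how the members' lower share compares with the background. With the polyA-like libraries alone, 24 of 95 were called, 3 higher and 21 lower, beside 16.4% of all genes.

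Sdhc (1:171127165-171150603, GRCm38), which anchors complex II in the membrane, held 21.6 and 28.3 CPM in WT EpiSC, against 86.3 and 144 CPM in WT XEN. The groups did not overlap, and the gene fell by 2.21 on the log2 scale (SE 0.38, edgeR adjusted p = 0.00289). Its partners did not pass the test: Sdha, the flavoprotein that oxidises succinate, held 160.2 and 140.0 CPM in WT EpiSC and 156 and 214 in WT XEN, and Sdhb, its iron-sulfur partner, 35.3 and 45.3 CPM in WT EpiSC and 47.5 and 66.1 in WT XEN. Sdhd, the other anchor, held 51.6 and 118 CPM in WT EpiSC and 84.6 and 122 in WT XEN. Of the 4 subunits, then, Sdhc alone was called.

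In complex I, Ndufv1 (19:4007384-4012806), which binds NADH, held 49.8 and 75.6 CPM in WT EpiSC and 132 and 250.4 CPM in WT XEN and fell by 1.61 (SE 0.37, edgeR adjusted p = 0.0111). Both WT EpiSC libraries were below both WT XEN libraries. Ndufv1 lost its call without WT XEN 2 (adjusted p = 0.0901), without WT EpiSC 1 (0.0875) and with library type in the fit (0.0718). Ndufa12, an accessory subunit, was one of the 3 higher members, at 90.4 and 111 CPM in WT EpiSC, against 38.4 and 36.5 CPM in WT XEN. It rose by 1.43 (SE 0.43, edgeR adjusted p = 0.0337), and lost the call when any 1 of the 4 libraries compared was left out (adjusted p 0.0650 to 0.118). It also shares 22.0% of its windows with other transcripts.

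In complex V, Atp5e (2:174461072-174464105), the epsilon subunit of the central stalk, held 12.5 and 31.7 CPM in WT EpiSC and 94.0 and 91.2 CPM in WT XEN, and fell by 2.07 (SE 0.44, edgeR adjusted p = 0.00789). Atp5g2 (15:102662864-102672352), a gene for the c subunit of the rotor ring, held 43.1 and 102 CPM in WT EpiSC and 212 and 365 CPM in WT XEN, and fell by 1.99 (SE 0.45, edgeR adjusted p = 0.0101). Neither overlapped between the groups, and both were picked from the calls of this same comparison. Without WT EpiSC 1 the adjusted p of Atp5g2 was 0.0601 and without WT XEN 2 it was 0.0699. Ndufa4l2, a paralogue of Ndufa4 that hypoxia is known to induce, rose by 4.03 (SE 1.33, edgeR adjusted p = 0.0459) at low levels, with 4.46 and 6.44 CPM in WT EpiSC, against 0.469 and 0.191 CPM in WT XEN. It too lost the call when any 1 of these libraries was left out. Lower nuclear members called also included Uqcrq and Uqcrfs1 of complex III, Cox4i1, Cox5a and Cox8a of complex IV, and Atp5j and Atp5mpl of complex V, with log2 fold changes of -2.59 (Uqcrq) to -0.92 (Atp5j).

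On the mitochondrial side mt-Cytb held 13530 and 1516 CPM in WT EpiSC and 978 and 517 CPM in WT XEN. It rose by 3.32 (SE 1.06, edgeR adjusted p = 0.0409), and library 1 carried most of this: without WT EpiSC 1 the log2 fold change was 1.07 (adjusted p = 0.407). The call was also lost without WT XEN 1 (adjusted p = 0.120) and without WT XEN 2 (0.181). mt-Co3, a core subunit of complex IV, went the other way, at 5.90 and 9.39 CPM in WT EpiSC, against 106 and 97.3 CPM in WT XEN, and fell by 3.74 (SE 0.59, edgeR adjusted p = 0.00192). mt-Atp6 and mt-Nd3 were also called lower. All 3 of the lower mitochondrial genes have over 97% of their windows in nuclear copies, and mt-Cytb has none. The mt-Co3 copy Gm28437 was lower too, at 7.88 and 6.29 CPM in WT EpiSC, against 99.5 and 83.3 in WT XEN. Gm10925, the copy of mt-Atp6, held 29.2 and 5.04 CPM in WT EpiSC and 72.1 and 50.04 in WT XEN. Gm28438, the copy of mt-Nd3, overlapped, at 5.45 and 5.04 CPM in WT EpiSC and 28.3 and 0.542 in WT XEN. The part of shared reads in these calls was not tested.

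**Figure D4:**
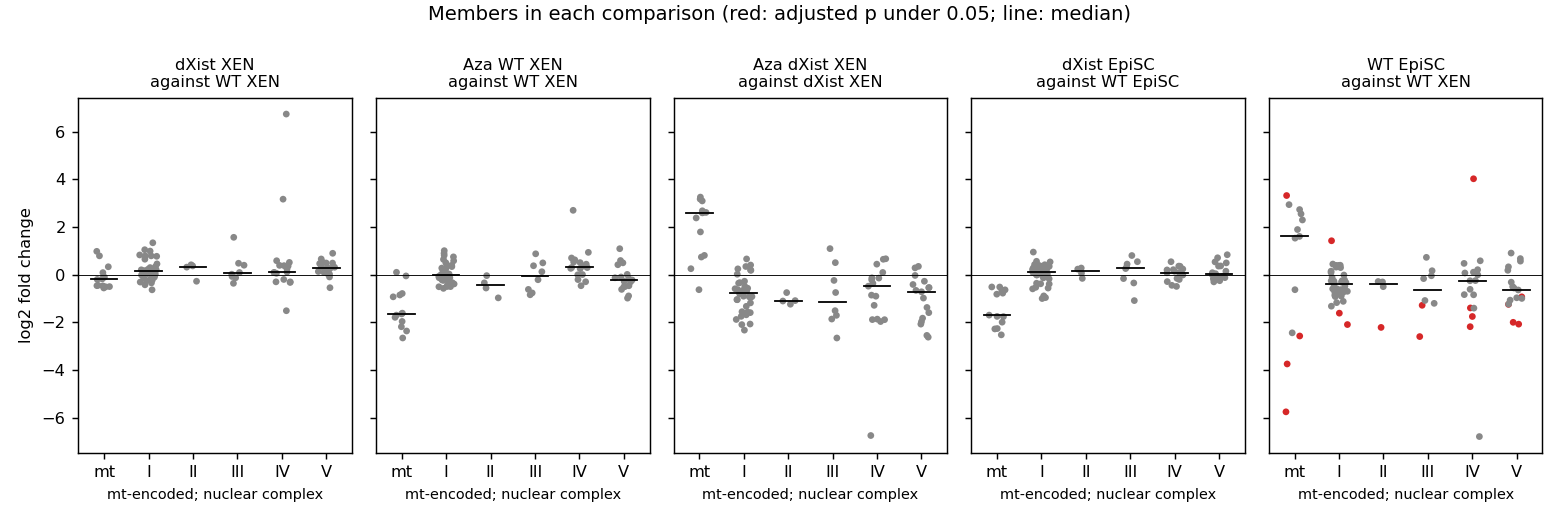
Log2 fold change of each member in each comparison, mitochondrial and nuclear members apart; red points passed an adjusted p under 0.05 in edgeR's test and the line is the median. Calls stand only in WT EpiSC against WT XEN, and in Aza dXist XEN against dXist XEN nuclear members lie mostly below 0 (median -0.77) and mitochondrial members mostly above it (median 2.60).

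The 5 comparisons share libraries, since WT XEN stands in 3 of them and dXist XEN and WT EpiSC in 2 each, so their values are not independent. Aza dXist XEN against dXist XEN gave no member past an adjusted p of 0.05, 0 of 95, beside 0.0761% of all genes (14 of 18393). At an unadjusted p under 0.05 there were 46 members, 8 mitochondrial ones higher and 38 nuclear ones lower, beside 26.8% of all genes, 14.4% higher and 12.4% lower. The median log2 fold change was -0.77 for the 82 nuclear members, of which 67 were negative, 2.60 for the 13 mitochondrial members, of which 12 were positive, and -0.02 for all genes. Without Aza dXist XEN 1 the mitochondrial median was -0.04, with 6 positive and 7 negative, and the nuclear one -1.04, with 79 of 83 negative. The smallest adjusted p was 0.0584 (edgeR's quasi-likelihood test).

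This count depended on the tool and on single libraries. DESeq2 called 38 members (15.8% of all genes), the fit with no filter on low counts 33 (7.71%), and a fit over the 13 libraries that added library type 18 (6.68%). It was 8 without dXist XEN 3 (2.33% of all genes) and 0 without dXist XEN 1 or without dXist XEN 2. Leaving out either Aza dXist XEN library leaves 1 treated library, a group with no spread of its own, so calls are not given there. Without Aza dXist XEN 2 the median log2 fold change was -0.96 for nuclear and 3.32 for mitochondrial members, beside -0.23 for all genes. The 3 members with the smallest p were nuclear. Ndufs7, a core subunit with the iron-sulfur cluster next to the quinone, held 10.5 and 13.6 CPM in Aza dXist XEN, against 53.9, 42.1 and 67.7 CPM in dXist XEN (log2 fold change -2.32, SE 0.35, edgeR adjusted p = 0.0584). Atp5e held 16.8 and 35.9 CPM in Aza dXist XEN, against 181, 153 and 109.6 CPM in dXist XEN (-2.62, SE 0.42, edgeR adjusted p = 0.0584). Ndufa2, an accessory subunit of complex I, held 23.5 and 19.5 CPM in Aza dXist XEN, against 101, 86.4 and 56.5 CPM in dXist XEN (-2.07, SE 0.35, edgeR adjusted p = 0.0593). None of the 3 overlapped between the groups, but they were picked by p from these same libraries.

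The summed values showed the same split. Nuclear members summed to 7489 and 5855 CPM in Aza dXist XEN and to 12691, 11060 and 9711 CPM in dXist XEN, with no overlap (exact permutation test, two-sided, p = 0.2, the smallest that 2 against 3 libraries allow). The log2 ratio of mitochondrial to nuclear counts was 3.19 and 0.72 in Aza dXist XEN, against -1.13, -1.69 and 0.42 in dXist XEN, again with no overlap and the same exact p of 0.2. The mitochondrial share itself did overlap. Of mitochondrial members, mt-Nd5 held 16136 and 1911 CPM in Aza dXist XEN, against 699, 447 and 1339 CPM in dXist XEN (3.26, SE 0.77, edgeR adjusted p = 0.0726), and library 1 was far above library 2. mt-Cytb, with 4541 and 621 CPM in Aza dXist XEN and 911, 504 and 2445 CPM in dXist XEN, overlapped between the groups. All 5 of these libraries are polyA-like.

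GC content of the transcripts moved with these values in single libraries. Over 81 nuclear members with a mean of at least 1 CPM, the deviation of a library from the mean of the 13 libraries had a Spearman correlation with transcript GC of -0.66 in Aza dXist XEN 1 and -0.44 in WT EpiSC 1. These are descriptions across genes, which are not replicates. Over all nuclear protein-coding genes the correlation was -0.67 in Aza dXist XEN 1 and -0.35 in WT EpiSC 1. For members it was positive in 7 XEN libraries, at 0.37, 0.21 and 0.26 in dXist XEN, 0.54 and 0.51 in Aza WT XEN and 0.12 and 0.52 in WT XEN. Over all nuclear protein-coding genes it was positive in these 7 too, at 0.11, 0.06 and 0.17 in dXist XEN, 0.34 and 0.32 in Aza WT XEN and 0.24 and 0.39 in WT XEN. In the remaining libraries the members' correlation lay between -0.13 and 0.21. In Aza dXist XEN 1 the 41 members at or above the median GC of 51.9% had a median deviation of -0.97 and the other 40 one of 0.42. In WT EpiSC 1 the median was -1.13 for the higher-GC set and -0.52 for the other, so both sets were low there. In Aza dXist XEN 2 the 2 medians lay close together, at -0.40 for the higher-GC set and -0.44 for the other. Among the lower members named above, GC was 60.1% for Ndufs7, 56.9% for Ndufv1, 56.8% for Atp5g2 and 54.6% for Atp5e. It was 52.4% for Sdhc and 51.7% for Ndufa2, the last just below the median. Every mitochondrial member lies at 41.1% or below. The part of GC content in the differences was not tested.

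**Figure D5:**
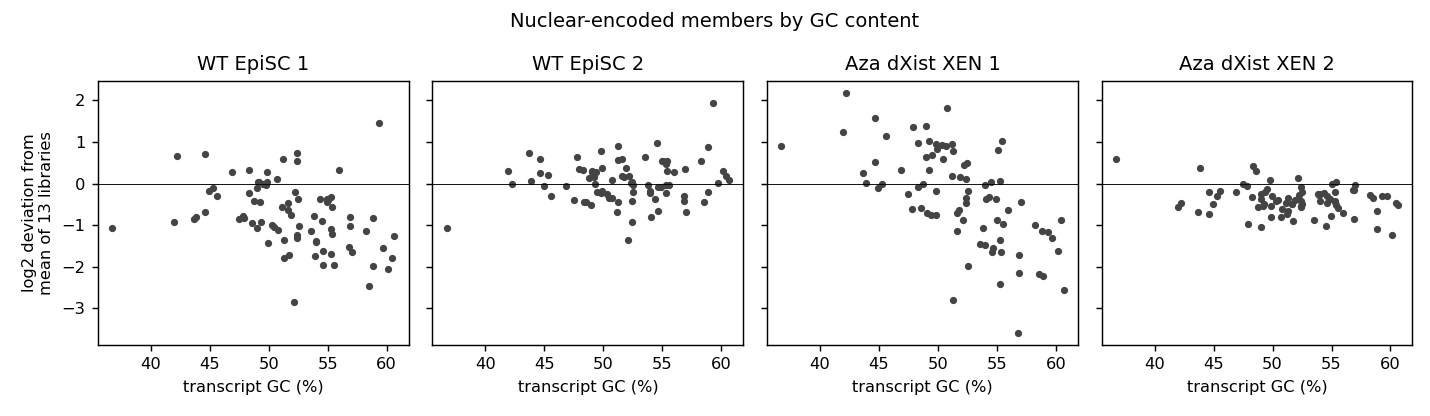
Deviation of 81 nuclear members (log2 scale, from the mean of 13 libraries) against transcript GC in 4 libraries. In Aza dXist XEN 1 and WT EpiSC 1 the points fall with GC (Spearman -0.66 and -0.44), while Aza dXist XEN 2 has medians of -0.40 and -0.44 above and below the median GC.

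In wild-type XEN cells the effects of treatment and of library type cannot be told apart, since both Aza WT XEN libraries are total-like and both WT XEN libraries polyA-like. No member was called, 0 of 95, beside 0.582% of all genes, and 6 had an unadjusted p under 0.05, beside 12.4%. DESeq2 also called 0. The nuclear sum was 8569 and 9020 CPM in Aza WT XEN, within the 7846 and 11244 CPM of WT XEN, and the median log2 fold change of nuclear members was -0.00. That of mitochondrial members was -1.64, with 12 of 13 negative, and -0.45 without WT XEN 1. With library type in a fit over the 13 libraries the mitochondrial median was 0.06, with 7 of 13 positive, and the nuclear one -0.60, with 73 of 83 negative. The library-type term of that fit is set by the EpiSC libraries alone, so it cannot separate type from treatment in XEN cells. The log2 ratio of the 2 sums was -1.28 and -1.34 in Aza WT XEN, against 0.50 and -0.95 in WT XEN, with no overlap (exact permutation test, p = 0.333, the smallest for 2 against 2).

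The 3 members with the smallest p were nuclear. Sdhc held 53.7 and 57.9 CPM in Aza WT XEN, against 86.3 and 144 CPM in WT XEN (log2 fold change -0.97, SE 0.38, edgeR adjusted p = 0.346). Atp5k, a small subunit at the dimer interface of the ATP synthase, held 76.3 and 80.1 CPM in Aza WT XEN, against 30.6 and 46.8 CPM in WT XEN (1.09, SE 0.44, edgeR adjusted p = 0.355). Cox5b, a zinc-binding subunit of complex IV, held 288 and 308 CPM in Aza WT XEN, against 117 and 210.1 CPM in WT XEN (0.94, SE 0.39, edgeR adjusted p = 0.367). None overlapped between the groups, which adds no support since they were picked by p from these libraries. Once library type entered a fit over the 13 libraries, Atp5k (-0.56) and Cox5b (-0.14) turned negative.

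Deletion of Xist in XEN cells gave 0 called members of 95, beside 0.0217% of all genes. DESeq2 called 0 as well. At an unadjusted p under 0.05 there were 7, 6 higher and 1 lower, beside 10.7% of all genes, 4.72% higher and 6.01% lower. The median log2 fold change was 0.17 for nuclear members, with 60 of 82 positive, -0.19 for mitochondrial members and 0.00 for all genes. These directions turned when single libraries were left out: without WT XEN 1 the nuclear median was -0.02, with 40 of 83 positive, and the mitochondrial one 0.55. The mitochondrial median was also positive without dXist XEN 1 (0.02) or dXist XEN 2 (0.19), was -1.13 without dXist XEN 3, and without WT XEN 2 the nuclear one was 0.49 and the mitochondrial one -0.52. Markers of cardiac or skeletal muscle, 6 in all, summed to 3.72, 2.84 and 131 CPM in dXist XEN, against 315 and 250.02 CPM in WT XEN. Most of the WT XEN sums was Myh7 alone, at 259 and 227 CPM. The part of these markers in the results was not tested. Uqcrq, a small subunit of complex III, held 869.8, 713 and 220.1 CPM in dXist XEN, against 157 and 242 CPM in WT XEN (1.57, SE 0.58, edgeR adjusted p = 0.413). Its high values were those of dXist XEN 1 and 2, and library 3 lay within the WT XEN range. Ndufa12, with 103, 73.0 and 49.7 CPM in dXist XEN and 38.4 and 36.5 CPM in WT XEN, did not overlap (0.99, SE 0.39, edgeR adjusted p = 0.420). Ndufa5, an accessory subunit of complex I, held 86.4, 80.8 and 53.7 CPM in dXist XEN and 40.0 and 18.0 CPM in WT XEN (1.34, SE 0.53, edgeR adjusted p = 0.425). Uqcrq, Ndufa12 and Ndufa5 had been picked by p from these libraries. The log2 ratio of mitochondrial to nuclear counts was -1.13, -1.69 and 0.42 in dXist XEN and 0.50 and -0.95 in WT XEN, overlapping (exact permutation test, p = 0.4), and without WT XEN 1 the difference was 0.15, against -0.57 with all 5 libraries.

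Deletion of Xist in EpiSC likewise gave 0 called members of 93, beside 0% of all genes, and DESeq2 called 0. With the replicate number as a block, which in EpiSC is also the library type, edgeR called 10 of 93, 5 higher and 5 lower, beside 11.4% of all genes. At an unadjusted p under 0.05 there were 3, all lower, beside 10.2% of all genes and 6.32% lower. The median was 0.09 for nuclear and -1.69 for mitochondrial members, and 13 of 13 mitochondrial members were negative. Without WT EpiSC 1 the nuclear median was -0.20 and the mitochondrial one 0.54, and without dXist EpiSC 2 the nuclear one was -0.05. The 8 fibroblast markers summed to 227 and 164 CPM in dXist EpiSC, against 795 and 675 CPM in WT EpiSC, and their part in the results was not tested. Library type divides this group, and the mitochondrial values followed it. Within the polyA-like pair (dXist EpiSC 1 minus WT EpiSC 1) the median difference was -1.92 over 12 mitochondrial members with at least 1 CPM, with 0 positive, and within the total-like pair it was 0.02, with 6 positive. Nuclear members had a median of 0.44 in the polyA-like pair and -0.14 in the total-like pair. Each pair is a single library against another and has no replicate check.

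The 3 members with the smallest p in EpiSC were lower in both pairs. Ndufa5 held 16.8 and 23.9 CPM in dXist EpiSC, against 38.8 and 37.6 CPM in WT EpiSC (log2 fold change -0.88, SE 0.28, edgeR adjusted p = 0.403). Uqcrb, a quinone-binding subunit of complex III, held 44.3 and 67.1 CPM in dXist EpiSC, against 147 and 92.9 CPM in WT EpiSC (-1.08, SE 0.37, edgeR adjusted p = 0.436), and shares 29.1% of its windows with nuclear copies. Ndufs6, a zinc-binding subunit of complex I, held 25.0 and 29.0 CPM in dXist EpiSC, against 66.4 and 40.3 CPM in WT EpiSC (-0.96, SE 0.33, edgeR adjusted p = 0.438). The groups did not overlap for any of the 3, which had been picked by p from these libraries. With the replicate block edgeR's adjusted p was 0.0312 for Ndufa5, 0.00610 for Uqcrb and 0.0229 for Ndufs6.

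The difference between the deletion's effect in EpiSC and that in XEN was tested as an interaction, and edgeR called 0 of 95 members, beside 0.0101% of all genes, with 8 at an unadjusted p under 0.05 beside 10.3%. DESeq2 called 1. Ndufa5 gave the smallest p (-2.22, SE 0.57, edgeR adjusted p = 0.287), followed by Ndufa12 (-2.0, SE 0.59, adjusted p = 0.329) and Ndufs6 (-1.30, SE 0.44, adjusted p = 0.396). Ndufa5 was the one that DESeq2 called (adjusted p = 0.0213). Ndufa12 held 31.3 and 68.3 CPM in dXist EpiSC and 90.4 and 111 CPM in WT EpiSC, and the opposite order in XEN cells as given above.

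The X-linked members are Ndufa1, Ndufb11 and Cox7b, and none was called in any comparison. Ndufb11, a membrane-arm subunit of complex I, held 123, 83.7 and 63.6 CPM in dXist XEN, against 48.0 and 52.3 CPM in WT XEN, with no overlap (0.83, SE 0.51, edgeR adjusted p = 0.580). In Aza dXist XEN it held 10.1 and 35.8 CPM, below all 3 dXist XEN libraries (-2.09, SE 0.54, edgeR adjusted p = 0.0770). In EpiSC it held 38.3 and 34.8 CPM with the deletion and 20.1 and 40.7 CPM without, overlapping. Cox7b, of complex IV, held 155, 90.1 and 117 CPM in dXist XEN and 86.7 and 72.8 CPM in WT XEN, without overlap (0.59, SE 0.47, edgeR adjusted p = 0.681). Ndufa1 held 46.1, 73.6 and 52.5 CPM in dXist XEN and 46.3 and 50.2 CPM in WT XEN, and overlapped. It lay lower in EpiSC, at 12.6 and 26.9 CPM in dXist EpiSC and 21.7 and 30.3 CPM in WT EpiSC.

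Other genes of mitochondrial energy metabolism, from 7 lists, had called members only between WT EpiSC and WT XEN, where 30.8% of all genes were called. Of 45 assembly factors 2 were called higher and 5 lower, the lower ones including Cox15, which makes heme A (49.5 ± 11.3 CPM in WT EpiSC and 112 ± 5.23 in WT XEN, log2 fold change -1.17, edgeR adjusted p = 0.0104). Of 33 genes that maintain or express the mitochondrial genome, translation factors among them, 3 were higher and 4 lower. Polg, the mitochondrial DNA polymerase, averaged 43.7 ± 16.8 CPM in WT EpiSC and 176 ± 9.10 in WT XEN (SD, n = 2 each) and fell by 2.01 (edgeR adjusted p = 0.00249). Top1mt, the mitochondrial topoisomerase, fell by 2.13 (edgeR adjusted p = 0.00334). Of 77 mitochondrial ribosomal proteins 5 were higher and 4 lower, with Mrpl14 among the lower (-2.07, edgeR adjusted p = 0.00888) and Mrps35 among the higher (1.36, edgeR adjusted p = 0.0101).

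Among 13 regulators of mitochondrial biogenesis 3 were called higher and 4 lower. The estrogen-related receptors split: Esrra fell by 1.97 (17.9 ± 10.3 CPM in WT EpiSC, 70.4 ± 22.5 in WT XEN, edgeR adjusted p = 0.0122). Esrrb, a pluripotency factor too, held 4.66 ± 1.28 CPM in WT EpiSC and 0 counts in WT XEN, and was called (edgeR adjusted p = 0.00104). Of 22 genes of the tricarboxylic acid cycle and pyruvate dehydrogenase 2 were higher and 3 lower, with Fh1, fumarase, at 22.9 ± 0.163 CPM in WT EpiSC and 114 ± 37.7 in WT XEN (-2.32, edgeR adjusted p = 0.00242), and Pdk4, a kinase that shuts pyruvate dehydrogenase down, at 32.2 ± 17.8 CPM in WT EpiSC and 0 counts in WT XEN (edgeR adjusted p = 0.000328). Cycs, cytochrome c, rose by 1.48 (136 ± 30.9 CPM in WT EpiSC, 48.8 ± 5.13 in WT XEN, edgeR adjusted p = 0.00550), the 1 called among 8 carrier genes tested. Of 22 glycolysis and lactate genes 2 were higher, among them Ldhb at 164 ± 8.61 CPM in WT EpiSC and 19.0 ± 12.6 in WT XEN (3.11, edgeR adjusted p = 0.00203), and 4 lower. The monocarboxylate transporter gene Slc16a1 was 1 of these (-2.79, edgeR adjusted p = 0.0114).

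In the other comparisons no list had a called member. Under treatment of dXist XEN cells, mitochondrial ribosomal proteins had a median log2 fold change of -0.80, with 66 of 77 negative and 35 at an unadjusted p under 0.05, beside a median of -0.02 and a share of 26.8% for all genes. In dXist XEN against WT XEN, glycolysis and lactate genes had a median of -0.97, with 21 of 22 negative and 9 at an unadjusted p under 0.05, beside a median of 0.00 and a share of 10.7% for all genes. Markers of another cell type moved with the cell type comparison: 8 fibroblast markers summed to 164 to 795 CPM in EpiSC, led by Col1a1 or Col1a2, and to 2.24 to 18.1 CPM in XEN, with 7 of 8 at 1 CPM or more in EpiSC. Their part in the results was not tested.

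Promoters of nuclear members are known for sites of NRF1 and of ETS factors such as GABP. RefSeq gave 72 promoter windows (250 bases before to 50 after the start, GRCm38.p6) for 67 of the 97 members. The NRF1 core GCATGCGC, searched on both strands, was in 13.9% of them and in 2.71% of 32851 windows of all genes. The ETS core CCGGAAG was in 22.2% of members' windows and 8.86% of all, the YY1 core AAGATGGC in 12.5% of members' windows and 2.75% of all, and the TATA box TATAAA in 11.1% of members' windows and 13.6% of all. The windows of Atp5e (chr2:174464052-174464351, minus strand) and Atp5g2 (chr15:102670998-102671297, minus strand) are printed because both genes were called lower in WT EpiSC. Capitals mark the ETS core in Atp5e and 2 overlapping matches to the NRF1 core in Atp5g2.
Atp5e: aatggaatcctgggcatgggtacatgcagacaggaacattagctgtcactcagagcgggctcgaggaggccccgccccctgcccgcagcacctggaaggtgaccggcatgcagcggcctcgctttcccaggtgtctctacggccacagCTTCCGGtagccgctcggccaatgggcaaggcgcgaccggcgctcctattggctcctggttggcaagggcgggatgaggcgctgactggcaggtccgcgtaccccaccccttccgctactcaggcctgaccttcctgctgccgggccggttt
Atp5g2: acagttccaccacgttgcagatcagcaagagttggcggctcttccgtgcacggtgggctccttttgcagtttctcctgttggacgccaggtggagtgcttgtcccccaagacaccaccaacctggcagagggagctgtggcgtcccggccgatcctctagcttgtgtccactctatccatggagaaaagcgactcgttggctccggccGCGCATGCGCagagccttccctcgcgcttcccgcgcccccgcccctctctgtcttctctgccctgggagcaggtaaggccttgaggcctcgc
A match of letters is a description of these windows and says nothing of binding in these cells.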

How the data were processed

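The deposited table holds counts of reads per gene, not normalised, and the submitters' processing notes list STAR 2.7.9a, featureCounts 2.0.1 and FastQC with the GRCm38 build. The sources used here do not give the strand setting, the handling of multi-mapped reads or the authors' annotation, nor which library was made with NEBNext Ultra or TruSeq stranded kits, both named in the labels' protocols. GENCODE M21 matched 38240 row identifiers, and 137 had no match. Counts were tested with edgeR 4.0.16 under R 4.3.3 (filterByExpr, TMM scaling, robust quasi-likelihood F test, adjusted p under 0.05), with 1 fit for the 9 XEN libraries (5 residual degrees of freedom), 1 for the 4 EpiSC libraries (2) and 1 for the 9 untreated libraries (5). Of the members, 95, 93 and 95 passed the filter in these fits. Each SE was taken as the size of the log2 fold change divided by the root of its F value. DESeq2 1.42.0 was an alternative. Levels are TMM-scaled CPM over 13 libraries, given as mean ± SD. Sums were compared by exact permutation tests, with p adjusted over 6 comparisons. Shared windows came from exact matches among GENCODE transcripts and identities from BLAST 2.17.0. The edgeR steps were tested on simulated data. Named were all mitochondrial and X-linked members, complex II, listed paralogues, the ends of each complex by level, up to 6 called members each way per comparison, otherwise the 3 with the smallest p, and up to 3 called members of each other list; 1 nuclear member is counted in the totals but not reported here. Members and lists were chosen with earlier results of these data known. For members named by p or call, a lack of overlap between groups is a description and adds no support. The share of all genes without overlap is given only for untreated EpiSC against untreated XEN.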

Additional observations from a re-analysis of the deposited data

Results flagged for a closer look

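The log2 ratio of mitochondrial to nuclear member counts differed in opposite directions in 2 comparisons: by 2.75 in Aza dXist XEN against dXist XEN and by -1.08 in Aza WT XEN against WT XEN, with no overlap in either. The exact p was 0.2 for the first and 0.333 for the second, each the smallest possible. The difference between these differences was not tested. Both Aza WT XEN libraries are total-like while the other 7 XEN libraries are polyA-like, so in wild-type cells the treated and untreated groups also differ in library type and the 2 cannot be told apart.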

How the results depend on the processing

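With no filter on low counts, 1 member was called in dXist XEN (1.92% of all genes) and 7 in Aza WT XEN (2.09%). Aza dXist XEN had 33 (7.71%), dXist EpiSC 6 (2.23%), WT EpiSC against WT XEN 33 (21.6%) and the interaction 5 (1.76%). The 7 in Aza WT XEN and the 6 in dXist EpiSC were all mitochondrial and lower. DESeq2 gave 38 in Aza dXist XEN (15.8% of all genes), 23 in WT EpiSC against WT XEN (37.9%) and 1 in the interaction (2.27%). Its size factors gave 1 in Aza dXist XEN (0.158%) and 19 in WT EpiSC against WT XEN (31.1%). Library type as a term gave 18 in Aza dXist XEN (6.68%) and 22 in WT EpiSC against WT XEN (22.1%). Of these 22, 2 were higher and 20 lower, beside 13.1% higher and 8.99% lower of all genes. A replicate block gave 4 in Aza dXist XEN (0.712% of all genes) and 10 in dXist EpiSC (11.4%). It gave 31 in WT EpiSC against WT XEN (40.0%) and 1 in the interaction (3.77%). The labels do not say that numbers pair libraries, and same-number correlations were -0.14 to 0.11 in XEN and 0.08 across cell types. In EpiSC they were 0.78, where the number is also the library type. With pairs as blocks the log2 ratio of mitochondrial to nuclear counts was -1.18 in dXist XEN, -1.08 in Aza WT XEN, 3.36 in Aza dXist XEN, -0.91 in dXist EpiSC and 2.35 in WT EpiSC against WT XEN. Leaving out each library in turn gave 0 to 44 called members in Aza dXist XEN, 6 to 32 in WT EpiSC against WT XEN, 0 to 1 in the interaction and 0 in the others. The ratio then ran from -1.30 to 0.15 in dXist XEN (0.15 without WT XEN 1), -1.81 to -0.35 in Aza WT XEN, 1.52 to 3.99 in Aza dXist XEN, -2.59 to 0.76 in dXist EpiSC (0.76 without WT EpiSC 1), 0.67 to 4.03 in WT EpiSC against WT XEN and 1.52 to 2.64 in untreated EpiSC against XEN. For the last the difference was 0.25 as a mean of log2 levels, 1.99 without mt-Co1, 1.59 with nuclear copies added, 2.09 from members under 10% shared and 3.30 in polyA-like libraries, none past p 0.05. The log2 ratio of the mean nuclear sums, -0.71, was -0.41 with no scaling (exact p = 0.0635) and -0.93 in polyA-like libraries (exact p = 0.0952, the smallest that 2 against 5 allow), and -0.81 to -0.60 leaving out each library. Alternatives on copies and on the nuclear sum were chosen after seeing the data. With library type as a term, which EpiSC libraries alone set, Atp5k (-0.56) and Cox5b (-0.14) reversed in Aza WT XEN. Of the other gene results under alternatives 226 kept direction and side of the threshold, 28 crossed to called and 21 lost the call. Causes were not tested. PolyA-like libraries alone could not be fitted for Aza WT XEN or dXist EpiSC.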
